A study of Mus musculus with 44 samples.

Results

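The comparison set 2 genetically marked populations of the mouse interpeduncular nucleus (IPN) against each other, Amigo1 neurons and Epyc neurons, in mice that had received no nicotine. Its members were the IPN pulldown libraries of these lines without nicotine, 8 of the 44 libraries of the series: 3 from the Amigo1 line (baseline 1, baseline 4 and saline pump 1) and 5 from the Epyc line (baseline 1 to 4 and saline pump 1). The series profiled medial habenula and IPN neurons by translating ribosome affinity purification (TRAP), in which ribosomes carrying an EGFP-tagged L10a protein are pulled down with anti-GFP beads (IP) and the RNA bound to them is sequenced beside RNA of the whole homogenate (input). The Amigo1 mice carried Amigo1-Cre (NP231) and the Epyc mice Epyc-Cre (KR363), each a bacterial artificial chromosome Cre driver crossed to the Cre-inducible tag Eef1a1-LSL.EGFPL10 on the B6J.Cg background. All mice were adults older than 8 weeks. Baseline mice were untreated as far as the labels say, and the saline pump mice had worn an osmotic minipump with saline for 10 days. Each library was made from a pool of 5 to 8 mice, with males and females pooled unless indicated otherwise, which puts the variation of animals, dissections and pulldowns into the spread between libraries. Each line was a single driver line, so the driver's site of activity and the neuron type cannot be told apart.

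The IPN is a midline nucleus of the midbrain and hindbrain that receives a dense cholinergic and glutamatergic input from the medial habenula, and this pathway takes part in the aversive effects of nicotine and in nicotine withdrawal. Most of its neurons are GABAergic, many carry nicotinic acetylcholine receptors with the α5 subunit, and they differ by subnucleus in peptides such as somatostatin. Nitric oxide made by Nos1 can act backwards on incoming fibres through cGMP, and somatostatin acts through inhibitory receptors.

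The 8 IP files held counts for the same 32532 gene symbols, with 7908401 to 25558681 counts in genes per library and 14543 to 17347 genes with a count. The Amigo1 saline pump library was the shallowest (7908401 counts) and stood apart from the rest. Across genes its Spearman correlation was 0.903 to 0.911 with the other Amigo1 libraries, which correlated at 0.977 with each other, and the 5 Epyc libraries correlated at 0.961 to 0.980 among themselves. Levels below are in CPM, gene counts scaled to library size with TMM factors. Its summed level of 20 oligodendrocyte markers was 2104 CPM, against 566 to 1275 CPM in the other 7 IPs and 6092 to 10069 CPM in the inputs. The input files hold another gene list (37328 symbols), so input levels are given beside IP levels for orientation and not tested against them. Of the 133 called genes named in this text 105 kept their calls when each of the 8 libraries was left out in turn.

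Somatostatin (Sst) and neuronal nitric oxide synthase (Nos1) marked the Amigo1 libraries, and epiphycan (Epyc, a small leucine-rich proteoglycan) and the CRH-binding protein Crhbp marked the Epyc libraries. These genes were set as markers of the populations with earlier results of these data known. Their separation by line in all 8 libraries is therefore no independent check of the line labels. The promoters of Sst and Crhbp, a marker of each line, are shown from 250 bases before to 50 bases after the RefSeq start (GRCm38.p6). Capitals mark a cAMP response element (TGACGTCA, either strand) in Sst at chr16:23890795-23891094 (minus strand) and a TATA box (TATAAA, either strand) in Crhbp at chr13:95444782-95445081 (minus strand).
Sst: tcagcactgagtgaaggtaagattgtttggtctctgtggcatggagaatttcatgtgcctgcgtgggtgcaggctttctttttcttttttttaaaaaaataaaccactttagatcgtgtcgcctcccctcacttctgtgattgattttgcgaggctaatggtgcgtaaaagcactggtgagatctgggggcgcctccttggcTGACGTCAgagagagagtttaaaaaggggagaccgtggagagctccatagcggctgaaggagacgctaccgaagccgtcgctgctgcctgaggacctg
Crhbp: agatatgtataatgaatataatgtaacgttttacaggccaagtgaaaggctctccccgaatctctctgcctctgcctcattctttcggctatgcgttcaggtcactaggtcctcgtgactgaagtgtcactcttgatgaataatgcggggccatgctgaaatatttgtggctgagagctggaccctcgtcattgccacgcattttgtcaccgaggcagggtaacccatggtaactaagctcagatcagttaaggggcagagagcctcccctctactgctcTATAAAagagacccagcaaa
The response element begins at position -48 from the start of Sst and is present in 1.8% of 32544 RefSeq promoter windows of this length, and the TATA letters begin at position 31 after the start of Crhbp and are present in 13.6% of them. The windows of the other markers, Nos1 and Epyc (both RefSeq starts), were scanned in the same way and held neither motif. The matches are descriptions of the letters and were set against no measurement here.

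Sst (chromosome 16, 23889573 to 23890958, GRCm38) stood at 3569.8, 3903 and 4769 CPM in Amigo1 baseline 1, baseline 4 and saline pump 1, the order used for Amigo1 libraries from here on. In Epyc baseline 1 to 4 and saline pump 1, again in that order from here on, it stood at 395, 389, 276, 254 and 331 CPM. All Amigo1 libraries were above all Epyc libraries, with a log2 difference (Amigo1 minus Epyc ± SE) of 3.63 ± 0.16 and an adjusted p = 3.96e-08 by edgeR's quasi-likelihood test with Benjamini-Hochberg adjustment, which gives every adjusted p below unless another tool is named. Sst was thus also read in the Epyc libraries, at 329 ± 63.8 CPM (SD, n = 5).
Nos1 (chromosome 5, 117781032 to 117958840) stood at 867, 919 and 481 CPM in Amigo1 and 83.7, 87.4, 77.7, 101 and 105 CPM in Epyc, a log2 difference of 3.06 ± 0.19 (adjusted p = 4.80e-07). The saline pump library was the lowest of the Amigo1 group and still lay above every Epyc library.
Epyc (chromosome 10, 97644068 to 97682454) was low in both lines, with 0.482, 0.443 and 2.75 CPM in Amigo1 and 21.2, 19.1, 8.27, 16.1 and 16.1 CPM in Epyc, and the lines did not overlap (-3.88 ± 0.64, adjusted p = 0.00209). Crhbp (chromosome 13, 95431371 to 95444924), which binds and sequesters corticotropin-releasing hormone, stood at 8.89, 3.01 and 1.18 CPM in Amigo1 and 76.6, 79.6, 59.6, 68.7 and 78 CPM in Epyc (-4.01 ± 0.47, adjusted p = 1.19e-04).
The driver gene Amigo1 itself (chromosome 3, 108186335 to 108192286), an adhesion protein that partners Kv2 potassium channels, did not separate the lines. It stood at 103, 104 and 161 CPM in Amigo1 and 164, 143, 151, 126 and 132 CPM in Epyc, and the groups overlapped (-0.22 ± 0.18, adjusted p = 0.511), while baseline libraries alone gave -0.50 (adjusted p = 0.0443). Chrna5 (chromosome 9, 54980880 to 55007779), the α5 nicotinic subunit, stood at 123, 142 and 136 CPM in Amigo1 and 99.4, 111, 107, 102 and 95 CPM in Epyc. The libraries did not overlap, yet the difference of 0.38 ± 0.14 was not called (adjusted p = 0.118).

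**Figure D1:**
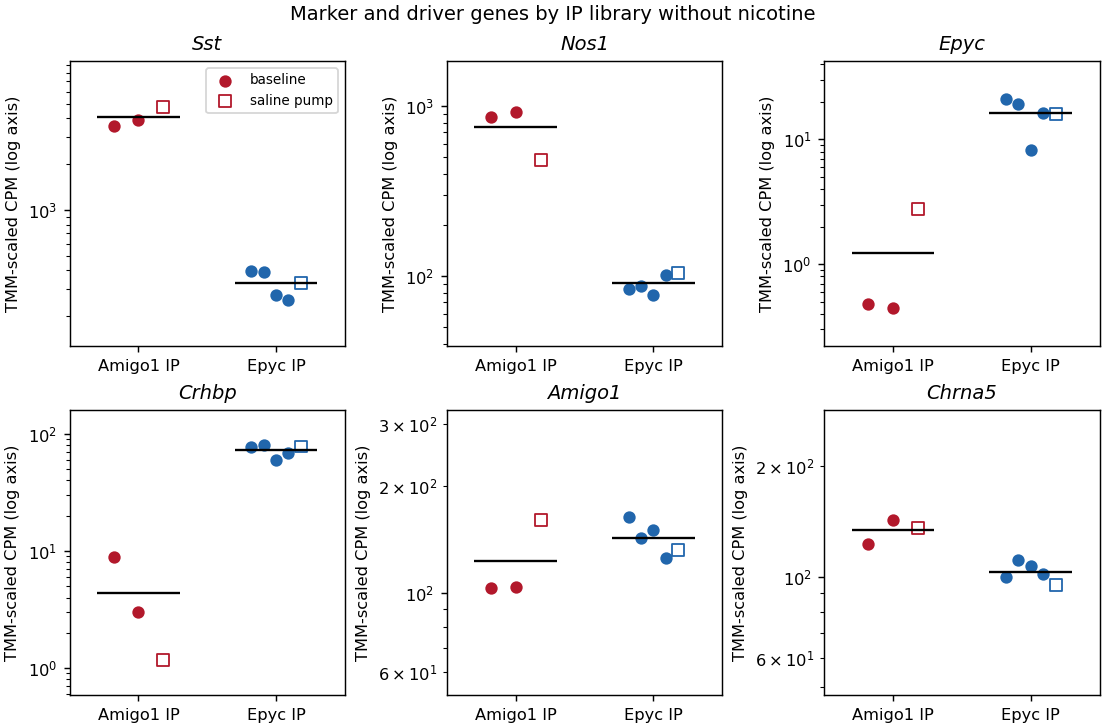
TMM-scaled CPM (log axis) of 6 genes in each of the 3 Amigo1 and 5 Epyc IP libraries without nicotine, with baseline libraries as filled circles, saline pump libraries as open squares and group means as black lines. Sst, Nos1, Epyc and Crhbp separate the lines in every library, Amigo1 overlaps, and Chrna5 differs by 0.38 ± 0.14 on the log2 scale.

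Of 14470 genes tested, 534 were higher in Amigo1 (3.69% of those tested) and 553 higher in Epyc (3.82%), 7.51% in all, at adjusted p under 0.05. Differences of at least 1 on the log2 scale numbered 379 and 284. The median log2 difference over all tested genes was 0.013. The libraries of the lines did not overlap for 1032 of the 1087 called genes (94.9%) and for 16.1% of all tested genes. Without the Amigo1 saline pump library 927 of the 1087 genes remained called in the same direction, out of 611 higher and 676 lower calls made then. The library numbers in the labels fall into ranges, and those holding both lines were 762 to 768 (2 libraries of each line) and 884 to 886 (1 of each). Within them the log2 ratio of mean CPM (pseudocount 0.5) was 3.25 and 3.85 for Sst, 3.38 and 2.19 for Nos1, -4.42 and -2.35 for Epyc and -3.61 and -5.55 for Crhbp.

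**Figure D2:**
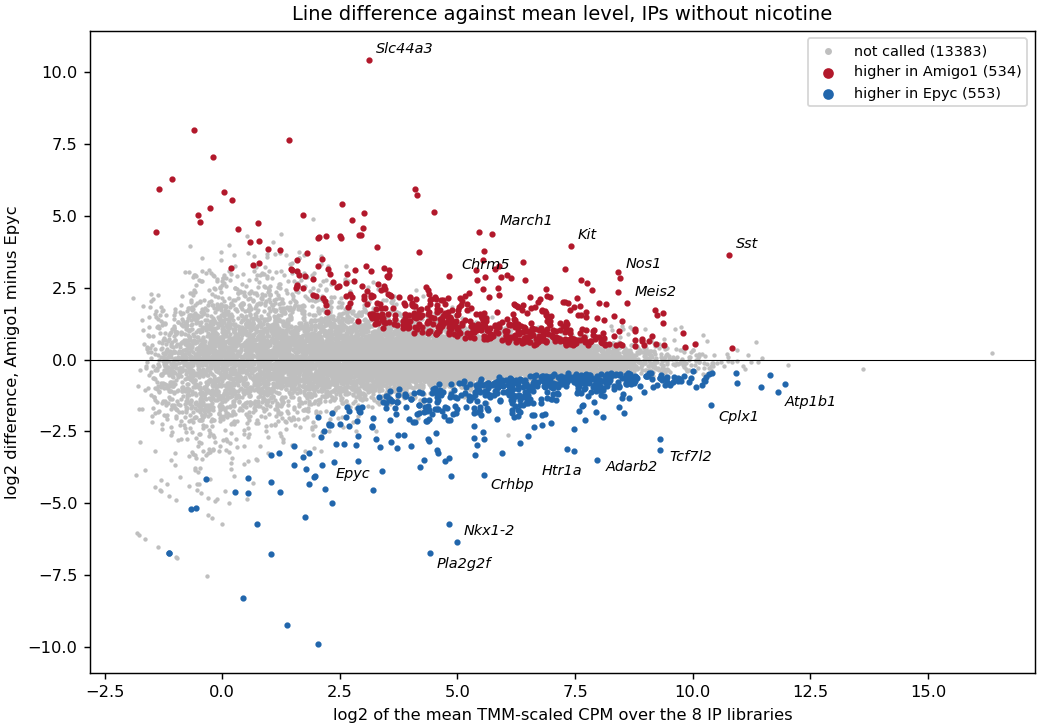
Log2 difference (Amigo1 minus Epyc) of the 14470 tested genes against the log2 mean CPM over the 8 IP libraries, with genes called higher in Amigo1 in red (534) and higher in Epyc in blue (553). Sst at 3.63 ± 0.16 and Atp1b1 at -1.12 ± 0.15 lie at the high-level end.

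Among protein-coding genes that averaged at least 10 CPM in the higher line and did not overlap, Slc44a3 of the choline transporter-like family had the largest difference in favour of Amigo1. It stood at 30.5, 26.2 and 12.6 CPM in Amigo1, and the 5 Epyc libraries held 1 count together. The pooled rate was 2520 times higher in Amigo1, with a 95% exact counting interval of 451 to 99623 that covers counting error only.
Pde5a, which degrades cGMP, stood at 50, 47.9 and 35.3 CPM in Amigo1 and 0.568, 0.232, 1.42, 0.988 and 0.45 CPM in Epyc (5.92 ± 0.46). Kit (chromosome 5, 75574916 to 75656722), the receptor tyrosine kinase for stem cell factor, stood at 367, 499 and 359 CPM in Amigo1 and 27.2, 27.8, 22.1, 31.5 and 22.6 CPM in Epyc (3.96 ± 0.17, adjusted p = 3.96e-08). In both genes the lowest Amigo1 library was more than 10 times the highest Epyc library.
March1, a membrane E3 ubiquitin ligase, averaged 132 ± 11 CPM (SD, n = 3) in Amigo1 and 6.39 ± 1.8 CPM (SD, n = 5) in Epyc, and the protease inhibitor Serpina3g averaged 109 ± 13.1 and 4.99 ± 1.39 CPM. Both were called, at log2 differences of 4.37 ± 0.23 and 4.44 ± 0.24.
The remaining genes of this group were Crisp1, a cysteine-rich secretory protein (5.72 ± 0.33), the developmental gene Mab21l2 (5.14 ± 0.40), the matrix protein Frem3 (5.10 ± 0.76), Rd3l (4.34 ± 0.49), the vasopressin receptor Avpr1a (4.29 ± 0.93), Abcc9 (4.24 ± 0.84), the sulfonylurea receptor subunit of ATP-sensitive potassium channels, and the zinc finger gene Zfp488 (3.79 ± 0.31). Avpr1a varied most within Amigo1, at 15.2, 24.7 and 1.7 CPM, with the saline pump library close to the Epyc range of 0 to 1.38 CPM, and lost its call without Amigo1 baseline 4 (3.58, adjusted p = 0.0566). Abcc9 is also a mural cell marker. It was the only called gene of 15 tested endothelial and mural markers (6.7%, near the 7.51% of all tested genes). The summed level of these markers was 41.4 to 96.0 CPM in Amigo1, 4.9 to 25.3 CPM in Epyc and 108.7 to 247.9 CPM in the inputs. The part of these cells in the difference of Abcc9 was not tested.

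In favour of Epyc, the largest difference was that of Pla2g2f (chromosome 4, 138750533 to 138757626), a secreted phospholipase A2. It stood at 0.413, 0.31 and 0.131 CPM in Amigo1 and 32, 34.3, 25.1, 46 and 31.8 CPM in Epyc (-6.75 ± 0.42, adjusted p = 4.64e-07). The homeobox gene Nkx1-2 (chromosome 7, 132594878 to 132599637) followed at 1.38, 0.31 and 0 CPM in Amigo1 and 48.1, 52.2, 63.5, 56.4 and 30.8 CPM in Epyc (-6.35 ± 0.60). All Epyc libraries were above 25 CPM for Pla2g2f and above 30 CPM for Nkx1-2, while no Amigo1 library reached 2 CPM.
Adarb2, of the adenosine deaminase RNA-editing family, stood at 40.4, 38.3 and 20.8 CPM in Amigo1 and 334, 321, 456, 437 and 338 CPM in Epyc (-3.50 ± 0.24). The other members were the butyrophilin-like gene Btnl10 (-5.73 ± 0.69), the cyclic nucleotide-gated channel Cnga3 (-4.55 ± 0.74), the tropomyosin Tpm2 (-4.07 ± 0.49), the LIM-only gene Lmo2 (-3.73 ± 0.56), the kelch-like gene Klhl14 (-3.52 ± 0.43), the grainyhead-like transcription factor Grhl3 (-3.52 ± 0.69), the acid-sensing channel family member Asic4 (-3.49 ± 0.52), and Crhbp and Epyc themselves. The difference of Btnl10 was -5.37 without the Amigo1 saline pump library, and in Epyc its saline pump library was high (81.2 CPM, against 30.6 to 41.9 CPM at baseline).

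**Figure D3:**
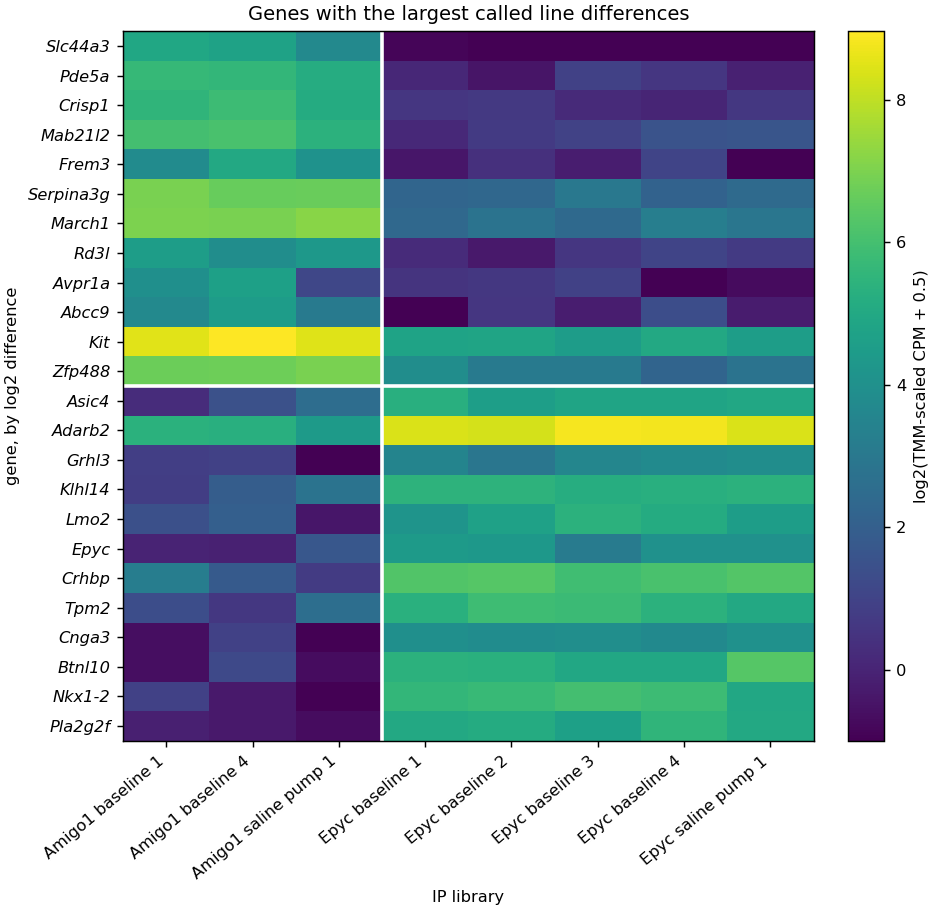
Log2(CPM + 0.5) of the 24 protein-coding genes with the largest called differences (12 in each direction, at least 10 CPM in the higher line, no overlap) in each of the 8 IP libraries, ordered by log2 difference. Genes with overlap were left out, so the division of the columns by line is set by that choice. Avpr1a is lower in the Amigo1 saline pump library (1.70 CPM) than in the other Amigo1 libraries (15.2 and 24.7 CPM).

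Of genes not annotated as protein-coding, those with the largest differences at 10 CPM or more were A530072M11Rik, Crnde and AI504432 towards Amigo1 and Gm13629, Gm9866 and 3300002P13Rik towards Epyc. A530072M11Rik rested on the saline pump library, with 1.24, 1.51 and 42.3 CPM in Amigo1, and its difference was 5.40 ± 1.23 with that library and 1.98 (adjusted p = 0.471) without it. Crnde stood at 25.4, 20 and 81.5 CPM in Amigo1 and at 12.4 CPM on average in Epyc, and lost its call without the same library (adjusted p = 0.0635). AI504432 differed by 0.72 ± 0.16, Gm13629 by -3.02 ± 0.31, Gm9866 by -1.87 ± 0.40 and 3300002P13Rik by -1.71 ± 0.40, the last losing its call without Amigo1 baseline 1 or Epyc baseline 3 (adjusted p up to 0.0537). A530072M11Rik lost its call without Epyc baseline 3 as well. Gm13629 is annotated as antisense, and counts without strand cannot tell it from an overlapping partner. The called genes with the highest mean CPM (not scaled to length) and a difference of at least 1 were Sst, 6330403K07Rik (1.62 ± 0.11) and Btbd3 (1.27 ± 0.11), a regulator of dendrite orientation, towards Amigo1. Towards Epyc they were Atp1b1 (-1.12 ± 0.15), the β subunit of the sodium pump, and the complexin Cplx1 (-1.56 ± 0.13), which clamps and promotes vesicle fusion.

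Of 6 tested GABAergic transmitter genes and 6 tested glutamatergic ones, none was called by edgeR in either direction, with log2 differences between -0.40 and 0.85 and between -0.83 and 0.58. At an unadjusted p under 0.05 they numbered 2 and 1, and DESeq2 called 1 and 0, the former towards Amigo1. Of 2 tested cholinergic transmitter genes 1 was called, the choline transporter Slc5a7, at 2.83, 3.77 and 4.46 CPM in Amigo1 and 0.0516, 0.696, 0, 0.263 and 0 CPM in Epyc (4.10 ± 1.15, adjusted p = 0.0463), named because it completes the count. Its call was lost without any library other than Epyc baseline 2 (adjusted p up to 0.105), among them Amigo1 saline pump 1 (3.94, adjusted p = 0.0566). Of 19 dopamine and serotonin neuron genes tested, 1 was called (5.3%, beside 7.51% of all tested genes, and 1 in each direction without the Amigo1 saline pump library). This was tyrosine hydroxylase (Th), the rate-limiting enzyme of dopamine synthesis, at 240.1, 244 and 407 CPM in Amigo1 and 85.2, 68.4, 46.3, 42.3 and 124 CPM in Epyc (2.02 ± 0.31). Its level in the inputs was 434 and 361 CPM on average, and how far RNA of neighbouring dopamine neurons entered the pulldowns was not tested.

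All calls among acetylcholine receptor genes were towards Amigo1. Of 16 nicotinic subunits 10 were tested, of which 4 were higher in Amigo1 and none in Epyc (40%, beside 7.51% of all tested genes), with a median log2 difference of 0.51. The called subunits were Chrna6 at 46.5, 48.7 and 65.7 CPM in Amigo1 and 13.5, 11.8, 12.2, 13.4 and 9.4 CPM in Epyc (2.15 ± 0.23), Chrnb3 (1.86 ± 0.40), Chrna3 (1.21 ± 0.23) and Chrna2 (0.65 ± 0.16), the last named because it completes the count. None of the 4 overlapped between the lines, as was so for 94.9% of all called genes. Chrna2 lost its call without Amigo1 baseline 1 or 4 or Epyc baseline 3 or 4 or saline pump 1 (adjusted p up to 0.0872). Scaled to exon length, Chrna2 was the highest subunit in both lines (52.4 CPM per kb in Amigo1 and 33.4 in Epyc), followed by Chrna5 (42.8 and 32.9 CPM per kb). Chrna6 stood at 18.5 and 4.14 CPM per kb on that scale. Without the Amigo1 saline pump library 4 of 11 were higher in Amigo1 and 1 in Epyc. Of 5 muscarinic receptors 1 was called, Chrm5, at 151, 227 and 202 CPM in Amigo1 and 17.4, 15.5, 19.7, 26.4 and 13 CPM in Epyc (3.40 ± 0.23, adjusted p = 7.71e-07), and every Amigo1 library exceeded every Epyc library more than 5-fold.

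Peptide genes held calls in both directions. Called were 23.5% of the tested precursor list, 14.3% of processing enzymes and 17.4% of peptide receptors, beside 7.51% of all tested genes. The precursor list held neuropeptide precursors, granins and other genes, Ecel1, Nxph1 and Nxph4 among them. Of its 34 tested members, 5 (Ecel1 and the set marker Sst included) were higher in Amigo1 and 3 in Epyc, with a median of 0.36. Without the Amigo1 saline pump library 7 and 3 of 36 were called, with a median of 0.22. Beside Sst, the gastrin-releasing peptide gene Grp stood at 22.1, 18.4 and 8.26 CPM in Amigo1 and 3.3, 3.32, 4.27, 0.593 and 2.25 CPM in Epyc (2.56 ± 0.53), and Calca, which encodes calcitonin and CGRP, averaged 41.8 and 7.22 CPM (2.53 ± 0.40). Vip (-2.65 ± 0.55), the nociceptin precursor Pnoc (-1.64 ± 0.43) and secretogranin Scg2 (-0.87 ± 0.15) were higher in Epyc. Pnoc varied within both lines, at 5.86, 5.59 and 14.6 CPM and 30.2, 43.8, 18.4, 14.6 and 26.2 CPM, and lost its call without Amigo1 baseline 1 or 4 or Epyc baseline 1 or 2 or saline pump 1 (adjusted p up to 0.118). Grp lost it without Amigo1 baseline 1 (adjusted p = 0.0545). Scaled to exon length, Sst stood at 5659.9 CPM per kb in Amigo1 and 456 in Epyc. Of 7 processing enzymes 1 was called (2 without the Amigo1 saline pump library), the proprotein convertase Pcsk5, at 145 and 18.7 CPM (2.95 ± 0.22).
Of 46 tested peptide receptors, 5 were higher in Amigo1 and 3 in Epyc (median 0.12, and 3 and 3 of 50 with a median of 0.04 without the Amigo1 saline pump library). Among them Avpr1a, the prokineticin receptor Prokr2 (3.69 ± 0.62) and the relaxin-3 receptor Rxfp3 (2.25 ± 0.48) were higher in Amigo1, and the CRH receptor Crhr1 (-2.34 ± 0.51) and the neurokinin B receptor Tacr3 (-1.38 ± 0.25) in Epyc. Tacr3 stood at 48.5, 64.9 and 26.6 CPM in Amigo1 and 140.5, 133, 107, 117 and 112 CPM in Epyc. Rxfp3 stood at 7.24, 16.2 and 46.9 CPM in Amigo1, and its call was lost without the saline pump library (1.26, adjusted p = 0.0583). Of 4 tested genes of the CRH system, Crhbp and Crhr1 were both higher in Epyc and none in Amigo1. Crhbp was among the markers set with earlier results known, so its call adds nothing independent to this count. Crhr1 stood at 3.72, 1.2 and 2.88 CPM in Amigo1 and 19.9, 18, 9.92, 7.84 and 9.4 CPM in Epyc.

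Of 24 tested nitric oxide and cGMP genes, 6 (the set marker Nos1 included) were higher in Amigo1 and 2 in Epyc (33.3%, beside 7.51% of all tested genes). Their median was 0.36, and 8 and 2 were called with a median of 0.19 without the Amigo1 saline pump library. Nos1 and Pde5a led, and the natriuretic peptide clearance receptor Npr3 stood at 32.4, 37.3 and 4.98 CPM in Amigo1 and 7.43, 3.48, 2.85, 2.57 and 0.844 CPM in Epyc (2.86 ± 0.63), where the saline pump library lay inside the Epyc range and the call was lost without Amigo1 baseline 1 (adjusted p = 0.0530). Higher in Epyc were Cnga3, which cGMP opens, and Nos1ap, an adaptor of Nos1 (-0.73 ± 0.19), whose call was lost without Amigo1 baseline 4 or Epyc baseline 1, 2, 3 or 4 or saline pump 1 (adjusted p up to 0.0790). The summed level of the 32 genes of this list in the files was 1941 to 2829 CPM in Amigo1 and 1189 to 1302 CPM in Epyc, without overlap, a sum in which Nos1 is included.

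Receptor genes for GABA, glutamate and serotonin were called in both directions. Called were 35.7% of tested GABA-A subunits, 35.3% of ionotropic and 28.6% of metabotropic glutamate receptors and 36.4% of serotonin receptors. The share of all tested genes was 7.51%. Of 14 tested GABA-A subunits, 4 were higher in Amigo1 and 1 in Epyc (median 0.82, and 5 and 2 with a median of 0.36 without the Amigo1 saline pump library). Gabrq stood at 118, 142 and 114 CPM in Amigo1 and 18.4, 16.4, 10.6, 13.6 and 11.8 CPM in Epyc (3.14 ± 0.21), Gabrg1 averaged 132 and 18 CPM (2.87 ± 0.20), and Gabra3 differed by 1.20 ± 0.19. Gabra5 was higher in Epyc (-1.90 ± 0.37), as was Kctd8, an auxiliary subunit of GABA-B receptors, at 34.6 and 132 CPM (-1.93 ± 0.22).
Of 17 ionotropic glutamate receptor genes, 3 were called in each direction. The AMPA subunits Gria1 (1.88 ± 0.15) and Gria2 (0.99 ± 0.16) were higher in Amigo1. The kainate subunits Grik1 (-2.06 ± 0.48) and Grik3 (-1.93 ± 0.31) and the AMPA subunit Gria3 (-0.64 ± 0.17) were higher in Epyc. Grik1 lost its call without Amigo1 baseline 1 or 4 or Epyc baseline 1 or 2 (adjusted p up to 0.0757), and Gria3 without Amigo1 baseline 1 or saline pump 1 or Epyc baseline 1, 3 or 4 (adjusted p up to 0.106). Gria1 stood at 335, 375 and 365 CPM in Amigo1 and 118, 101, 82.7, 105 and 81.7 CPM in Epyc. Of 7 metabotropic receptors, Grm5 was higher in Amigo1 (0.59 ± 0.15) and Grm4 in Epyc (-1.12 ± 0.19, with 1 and 2 of 7 called without the Amigo1 saline pump library), the former losing its call without Amigo1 baseline 1 or 4 or Epyc baseline 2, 3 or 4 or saline pump 1 (adjusted p up to 0.105).
Of 11 tested serotonin receptors, 1 was higher in Amigo1 and 3 in Epyc (median -0.44). Htr1a, an inhibitory receptor, stood at 18.2, 23.5 and 42.1 CPM in Amigo1 and 259, 239, 269, 222 and 216 CPM in Epyc (-3.12 ± 0.26). Htr7 (-2.85 ± 0.35) and Htr5a (-1.24 ± 0.33) were higher in Epyc too, the latter losing its call without Amigo1 baseline 1 or Epyc baseline 1, 2, 3 or 4 (adjusted p up to 0.0927). Htr2c was higher in Amigo1 (1.11 ± 0.19). Without the Amigo1 saline pump library 1 of 12 was higher in Amigo1 and 5 in Epyc. Of 22 tested monoamine, cannabinoid and purine receptors 2 were called (9.1%, near the 7.51% of all tested genes, and 2 and 1 of 23 without the Amigo1 saline pump library). They were the adrenergic receptor Adra1a (2.89 ± 0.23) and the dopamine receptor Drd2 (2.11 ± 0.42), both higher in Amigo1.

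Ion channel genes held calls on both sides. Called were 36.5% of tested potassium, 56.2% of sodium and HCN and 21.7% of calcium channel genes, and 27.8% of calcium-binding protein genes. The share of all tested genes was 7.51%. Of 63 tested potassium channel genes, 11 were higher in Amigo1 and 12 in Epyc (median -0.11, and -0.26 without the Amigo1 saline pump library). Higher in Epyc were the inward rectifier Kcnj4 (-3.67 ± 0.76), the modifier subunit Kcng4 (-3.42 ± 0.36) and the calcium-activated Kcnn1 (-2.95 ± 0.78), which lost its call without Amigo1 baseline 4 or Epyc baseline 1, 2, 3 or 4 (adjusted p up to 0.0980). The modifier subunit Kcns3 was called towards Amigo1, but it stood at 2.14, 0.665 and 52.4 CPM there, and without the saline pump library its difference was 0.64 (adjusted p = 0.841). Its call was lost without Amigo1 saline pump 1 or Epyc baseline 1, 3 or 4 or saline pump 1.
Of 16 tested sodium and HCN channel genes, 3 were higher in Amigo1 and 6 in Epyc (median -0.64). Scn1a stood at 135, 179 and 127 CPM in Amigo1 and 479, 511, 479, 470.5 and 395 CPM in Epyc (-1.67 ± 0.16), and the β subunit Scn4b (-3.03 ± 0.63) went with it. Scn3a (0.96 ± 0.17), Scn3b (0.99 ± 0.16) and Scn7a (1.55 ± 0.44) were higher in Amigo1, Scn7a losing its call without Amigo1 baseline 1 or 4 or Epyc baseline 2, 3 or 4 or saline pump 1 (adjusted p up to 0.134). Of 23 calcium channel genes, 4 were higher in Amigo1 and 1 in Epyc (4 and 3 without the Amigo1 saline pump library), among them Cacna1e (1.44 ± 0.13) and Cacng4 (1.47 ± 0.30) against Cacng3 (-1.68 ± 0.35). Cacna2d4 rested on the Amigo1 saline pump library (1.93, 1.77 and 28.7 CPM; 0.44 without it, adjusted p = 0.847). It lost its call without Amigo1 saline pump 1 or Epyc baseline 1, 2, 3 or 4 or saline pump 1.
Of 18 tested calcium-binding protein genes, 2 were higher in Amigo1 and 3 in Epyc (2 and 5 without the Amigo1 saline pump library). Parvalbumin (Pvalb) stood at 2.48, 5.9 and 3.41 CPM in Amigo1 and 37.3, 43.3, 37.4, 22.8 and 36.5 CPM in Epyc (-3.15 ± 0.36), Hpca and Ncs1 differed by -0.64 ± 0.13 and -0.53 ± 0.13, and Necab1 (1.61 ± 0.22) and Hpcal4 (1.34 ± 0.15) were higher in Amigo1. Ncs1 lost its call without Amigo1 baseline 1 or 4 or Epyc baseline 2 or 3 (adjusted p up to 0.0980).

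Genes of wiring and adhesion were called in both directions. Of 65 tested axon guidance genes, 14 were higher in Amigo1 and 9 in Epyc (35.4% called, beside 7.51% of all tested genes, median -0.09, and 14 in each direction of 66 without the Amigo1 saline pump library). The netrin receptor Unc5d stood at 115, 178 and 164 CPM in Amigo1 and 28.5, 24.3, 18.6, 18.2 and 17.2 CPM in Epyc (2.83 ± 0.22), and the semaphorin receptors Plxnd1 (2.41 ± 0.48) and Nrp1 (2.15 ± 0.45) were also higher in Amigo1. Towards Epyc were Sema3e, a ligand of Plxnd1, at 5.24, 1.95 and 4.19 CPM and 28.9, 36.2, 32.7, 50.2 and 32.3 CPM (-3.27 ± 0.37), the ephrin receptor Epha4 (-2.66 ± 0.28) and the ephrin Efna5 (-1.94 ± 0.25). So Plxnd1 and its ligand were called in opposite lines.
Of 56 tested synaptic adhesion and cerebellin genes, 5 were higher in Amigo1 and 7 in Epyc (21.4%, median -0.08, and 8 and 9 of 57 with a median of -0.15 without the Amigo1 saline pump library). Among them were Lrrtm3 (1.43 ± 0.16), Cntnap5b (1.18 ± 0.23) and Tenm4 (1.00 ± 0.16) on the Amigo1 side and Cntn4 (-2.18 ± 0.35), Lrrtm1 (-2.06 ± 0.21) and Lrrc4 (-1.65 ± 0.22) on the Epyc side. The family members Lrrtm3 and Lrrtm1 were called in opposite directions, at 115, 132 and 116 CPM against 47.9, 47.1, 36.4, 47.5 and 46.7 CPM for Lrrtm3 and 19.4, 23.7 and 14.3 CPM against 83.5, 79.7, 83.8, 82.1 and 70.5 CPM for Lrrtm1. Of 29 tested cadherins and nonclustered protocadherins 17.2% were called. Cdh6 (2.20 ± 0.56), Cdh22 (1.22 ± 0.34) and Cdh9 (1.14 ± 0.22) were higher in Amigo1, and Pcdh10 (-1.17 ± 0.18) and Cdh8 (-0.90 ± 0.19) in Epyc. Cdh6 lost its call without Amigo1 baseline 1 or 4 or Epyc baseline 1, 2 or 3 (adjusted p up to 0.0786), and Cdh22 without Amigo1 baseline 1 or saline pump 1 or Epyc baseline 1, 2, 3 or 4 (adjusted p up to 0.107). Of 9 tested small leucine-rich proteoglycans 22.2% were called, the set marker Epyc among them, higher in Epyc. Bgn was called towards Amigo1 on the saline pump library (1.79, 1.42 and 16.9 CPM, with a difference of 1.04 without it, adjusted p = 0.658). The call of Bgn was lost without Amigo1 saline pump 1 or Epyc baseline 1, 2, 3 or 4 or saline pump 1.

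Of 49 tested synaptic vesicle and release genes, 10 were higher in Amigo1 and 11 in Epyc (42.9%, beside 7.51% of all tested genes, median -0.07). The synaptotagmin Syt6 stood at 499, 492 and 372 CPM in Amigo1 and 61.2, 78.2, 58.6, 67 and 90.1 CPM in Epyc (2.68 ± 0.17), the priming factor Unc13c averaged 475 and 89.4 CPM (2.41 ± 0.18), and Cadps2, which acts in dense-core vesicle release, 685 and 133 CPM (2.37 ± 0.14). Cplx1 stood at 581, 505 and 719 CPM in Amigo1 and 1934, 1848, 1714, 1627 and 1773 CPM in Epyc. The calcium sensor Doc2b (-1.61 ± 0.18) and the synaptotagmin family member Syt17 (-1.58 ± 0.30) were higher in Epyc too. Of 24 pan-neuronal genes, 3 were higher in Amigo1 and 8 in Epyc (45.8%, median -0.36), among them Rbfox3 (0.77 ± 0.19) and Syt1 (0.40 ± 0.11) against Nefh (-1.63 ± 0.18), Tubb3 (-1.04 ± 0.25) and Eno2 (-0.77 ± 0.14). Rbfox3 lost its call without Amigo1 baseline 1 or 4 or Epyc baseline 3 or 4 or saline pump 1 (adjusted p up to 0.0804), Tubb3 without Amigo1 baseline 1 or Epyc baseline 1 or 2 or saline pump 1 (adjusted p up to 0.0701), and Syt1 without any library other than Amigo1 saline pump 1 (adjusted p up to 0.111).

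Transcription factors of the IPN and of neighbouring hindbrain and midbrain were called in both directions. Of 62 tested, 11 were higher in Amigo1 and 6 in Epyc (27.4%, beside 7.51% of all tested genes). Their median was 0.42, and 14 and 9 of 63 were called with a median of 0.12 without the Amigo1 saline pump library. Tcf7l2 (chromosome 19, 55741820 to 55933654), the effector of Wnt signalling, stood at 91.6, 101 and 125 CPM in Amigo1 and 976, 966, 1069, 965 and 777 CPM in Epyc (-3.16 ± 0.16, adjusted p = 1.67e-07). Meis2, a homeobox cofactor, went the other way at 790.5, 886 and 605 CPM in Amigo1 and 94.5, 93.2, 97.1, 129.9 and 111 CPM in Epyc (2.85 ± 0.16, adjusted p = 1.98e-07). For both genes the lowest library of the higher line was more than 4 times the highest of the other.
The nuclear receptors Nr2f1 (2.29 ± 0.28) and Rorb (2.15 ± 0.18) were higher in Amigo1, and the orphan receptor Esrrg (-2.40 ± 0.14) and the LIM-only gene Lmo3 (-2.29 ± 0.23) in Epyc. Of 26 tested immediate early genes, 3 were higher in Amigo1 and none in Epyc (11.5%, beside 7.51% of all tested genes, median 0.36, and 5 and 0 of 28 without the Amigo1 saline pump library). Egr1 stood at 98.1, 148 and 52.3 CPM in Amigo1 and 37.8, 29.5, 13.6, 13.5 and 16.7 CPM in Epyc (2.17 ± 0.37). Fosl2 differed by 1.81 ± 0.39. Egr1 varied within each line as well, and Fosl2 lost its call without Amigo1 baseline 1 (adjusted p = 0.0737).

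All calls among nuclear-encoded oxidative phosphorylation genes were towards Epyc. Of 75 tested, none was higher in Amigo1 and 14 in Epyc (18.7%, beside 7.51% of all tested genes), 70 had a negative difference, and the median was -0.40. The summed level of the list was 11304 to 12834 CPM in Amigo1 and 16430 to 20557 CPM in Epyc, without overlap. Atp5b stood at 1499, 1967 and 1901 CPM in Amigo1 and 2727, 2499.9, 3853, 4199 and 3859 CPM in Epyc (-0.94 ± 0.18), with Atp5c1 (-0.86 ± 0.17) and Cox7b (-0.81 ± 0.15) beside it. Without the Amigo1 saline pump library 14 of 76 were higher in Epyc and none in Amigo1, and the median was -0.46. Cytosolic ribosomal protein genes had a median of 0.63 with none of 76 called by edgeR, 27 at an unadjusted p under 0.05 and 10 called by DESeq2, all towards Amigo1, and their summed level was 7245 CPM in the Amigo1 saline pump library against 2398 to 4158 CPM in the other 7. Rpl4, the member with the highest mean, stood at 651, 374 and 1164 CPM in Amigo1 and 436, 431, 517, 486 and 575 CPM in Epyc, and was called without Amigo1 baseline 4 (0.89, adjusted p = 0.0124). The list's median was 0.27 without the Amigo1 saline pump library.

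**Figure D4:**
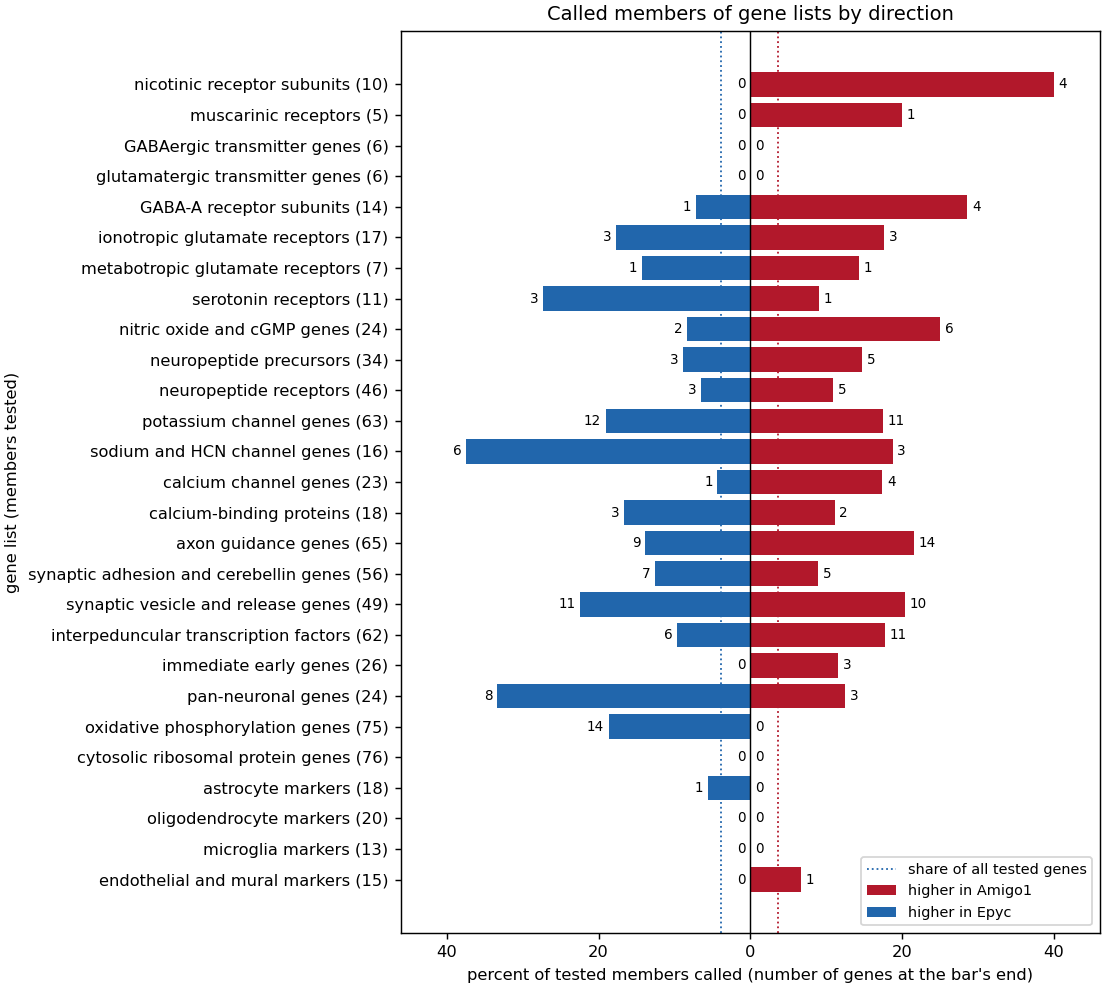
Percent of the tested members of 27 gene lists called higher in Amigo1 (red, to the right) or higher in Epyc (blue, to the left), with the number of genes at the end of each bar and dotted lines at the share of all tested genes (3.69% and 3.82%). Nicotinic subunits (4 and 0 of 10) lie to the Amigo1 side and oxidative phosphorylation genes (0 and 14 of 75) to the Epyc side, and the GABAergic and glutamatergic transmitter genes have no bar.

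Genes listed as markers of other cells were read in all libraries. Of 18 astrocyte markers 1 was called (5.6%, beside 7.51% of all tested genes, and 2 without the Amigo1 saline pump library). This was the glycolytic enzyme Aldoc, higher in Epyc at 109, 116 and 209.7 CPM against 336, 336, 261, 276 and 486 CPM (-1.23 ± 0.25). The summed level of the list was 707 to 1290 CPM in Amigo1, 751 to 1168 CPM in Epyc and 3109 to 4419 CPM in the inputs. None of 20 oligodendrocyte, 9 oligodendrocyte precursor or 13 tested microglia markers was called by edgeR (4, 1 and 2 at an unadjusted p under 0.05, and 1, 0 and 1 by DESeq2), with medians of 0.56, 0.27 and 1.24, which became -0.02, -0.08 and 0.54 without the Amigo1 saline pump library. Markers of the medial habenula, whose axons end in the IPN, summed to 600.5 to 774 CPM in Amigo1, 727 to 832 CPM in Epyc and 621 to 795 CPM in the inputs. Of 18 tested, 3 were higher in Amigo1 and 2 in Epyc (27.8%, beside 7.51% of all tested genes). Among them were Slc5a7 and Chrna3 towards Amigo1 and Lmo3 and Kctd8 towards Epyc, all reported above as line differences. How far habenular RNA contributed to these levels was not tested. Immunoglobulin and B cell genes summed to 724 to 4070 CPM in Amigo1, 656 to 1421 CPM in Epyc and 170.3 to 280.2 CPM in the inputs. For this list every IP lay above every input, the other way from the astrocyte list. The source of these reads was not tested. The J chain gene Igj was the called member of 10 tested (10%, near the 7.51% of all tested genes). It stood at 18.5, 6.07 and 67.8 CPM in Amigo1, and its call was lost without the saline pump library (adjusted p = 0.469). The call was also lost without any other library except Amigo1 baseline 4. In bulk pulldowns fewer tagged cells of a type and less RNA per cell cannot be told apart.

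The artificial chromosomes that drive Cre can carry neighbouring genes, so the neighbours of both driver genes were examined within 250 kb. Around Amigo1, 1 of 14 tested neighbours was called (7.1%, near the 7.51% of all tested genes). This was Gnai3 (chromosome 3, 108107280 to 108146146), an inhibitory G protein subunit, at 49.2, 49.6 and 90.8 CPM in Amigo1 and 27.9, 28.2, 29, 30.1 and 27.7 CPM in Epyc (1.14 ± 0.22, adjusted p = 0.0065). Its difference was 0.79 (adjusted p = 0.0113) without the saline pump library and -0.20 ± 0.18 in the inputs, and which genes the transgenes contain was not tested. Around Epyc, neither of 2 tested neighbours was called. Reads of a driver gene itself cannot be told apart from any given by sequence of that gene in its transgene. The long noncoding RNA Gm10754, which overlaps the Epyc gene, stood at 0.689, 0.177 and 8 CPM in Amigo1 and 9.71, 9.59, 8.87, 5.14 and 3.94 CPM in Epyc. Its difference was -1.41 ± 0.89 (adjusted p = 0.392) with all libraries and -4.17 (adjusted p = 6.90e-04) without the Amigo1 saline pump library, and its reads cannot be told apart from those of Epyc where the genes overlap without strand.

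The line differences of the pulldowns were not detected in the dissected tissue. Between 4 Amigo1 and 4 Epyc inputs (24027397 to 63830803 counts), 0% of 16560 genes were called by edgeR (0 in each direction), with 627 genes at an unadjusted p under 0.05, and DESeq2 called 2 in each direction. Of the 1087 called genes 1051 were tested in the inputs, and 57.0% of these had the same sign there, against 52.9% of all genes tested in both. By direction, the sign was the same for 244 of 516 genes higher in Amigo1 IPs and 355 of 535 higher in Epyc IPs. The median input difference was -0.02 for genes higher in Amigo1 IPs and -0.08 for those higher in Epyc IPs. Sst differed by -0.52 ± 0.34 in the inputs and Tcf7l2 by -0.16 ± 0.23. Slc44a3 averaged 2.12 CPM in Amigo1 inputs and 0.0958 CPM in Epyc inputs (4.53 ± 0.93, adjusted p = 0.982).
Taking the difference between IPs minus that between inputs in 1 fit of 16 libraries, 619 of 15299 genes were called (4.05%), 304 towards Amigo1 and 315 towards Epyc. In this fit, which uses the same 8 IPs, Sst stood at 4.10 ± 0.43, Nos1 at 2.97 ± 0.31, Tcf7l2 at -3.05 ± 0.29, Crhbp at -4.24 ± 0.50 and Epyc at -4.12 ± 0.75. The 2 gene lists behind IP and input files drop out of this difference, since both lines share a list within a fraction. Inputs and IPs with the same line, treatment and replicate number were fitted as unpaired libraries, without a term for a shared pool.

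The same lines were also sampled in nicotine-treated mice, in 5 IPs that the comparison above did not use. The 3 Amigo1 pools drank water with 500 mg/L nicotine tartrate and 0.2% saccharin for 6 weeks, and the 2 Epyc pools wore pumps giving 24 mg/kg/day nicotine (free base) for 10 or 11 days, so route, saccharin and line cannot be told apart. The Amigo1 nicotine libraries held counts in 11214 to 11645 genes, against 16085 and 16461 in the Epyc ones. None of 13571 genes was called by edgeR (0%), with 1738 at an unadjusted p under 0.05, while DESeq2 called 122 towards Amigo1 and 202 towards Epyc.
Of the 1087 genes 1060 were tested there, and 77.6% had the same sign, against 57.8% of all genes tested in both sets. By direction, the sign was the same for 436 of 512 genes higher in Amigo1 and 387 of 548 higher in Epyc. The median difference there was 1.56 for genes higher in Amigo1 without nicotine and -0.68 for those higher in Epyc.
Among single genes, Sst stood at 21797, 9939 and 24896 CPM in Amigo1 nicotine water 1, 3 and 4 and 212 and 229.8 CPM in Epyc nicotine pump 1 and 2. Nos1 stood at 227, 379 and 413 CPM in Amigo1 and 74.3 and 56.2 CPM in Epyc, Crhbp at 0, 0.311 and 17.6 CPM and 70.6 and 46.5 CPM, and Tcf7l2 at 243, 175 and 138 CPM and 696 and 586 CPM. Epyc had no counts in the Amigo1 nicotine libraries and 12.7 and 8.78 CPM in Epyc. The lines did not overlap at these 5 genes, as was so for 35.1% of the 13571 genes tested there, and Chrna5 did overlap, at 27.8, 23.9 and 113 CPM in Amigo1 and 88.6 and 107 CPM in Epyc. Kit (576, 281 and 207 CPM and 20.8 and 29.5 CPM), Meis2 (1601, 716 and 1345 CPM and 108 and 79.8 CPM) and Slc44a3 (26.4, 22.6 and 29.3 CPM, with 0 in both Epyc libraries) were likewise apart. Pla2g2f and Nkx1-2 had no counts in the Amigo1 nicotine libraries and stood at 22.1 and 21 CPM and 36.8 and 66.1 CPM in the Epyc ones.

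**Figure D5:**
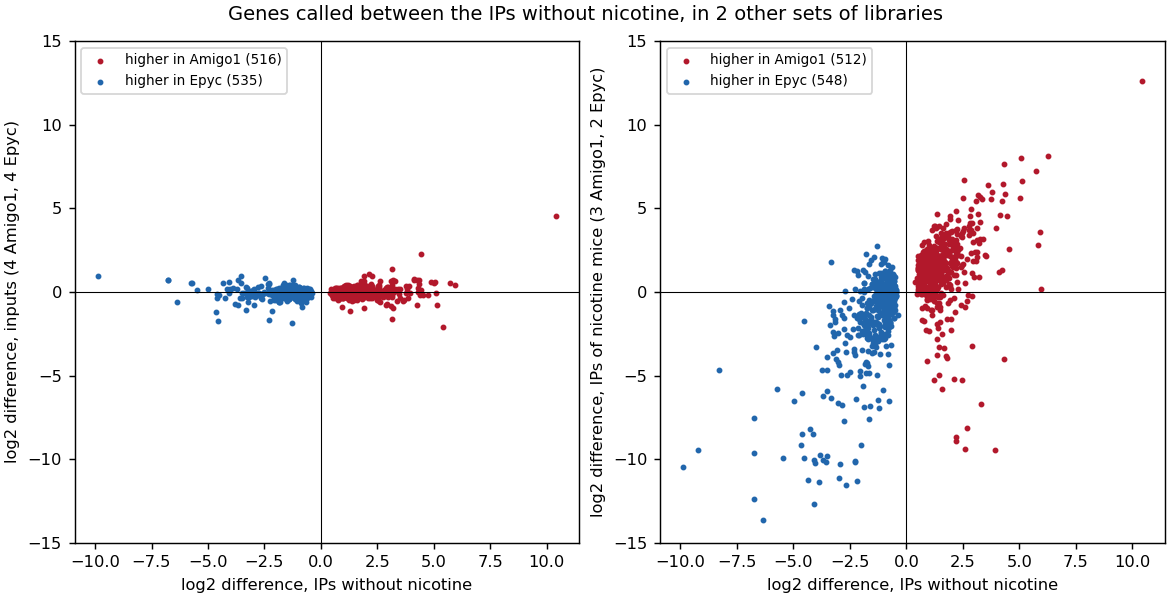
Log2 differences (Amigo1 minus Epyc) of the genes called between the 8 IPs without nicotine (horizontal axis) against their differences in the 8 inputs (left, 1051 genes) and in the 5 IPs of nicotine mice (right, 1060 genes), red for genes higher in Amigo1 and blue for genes higher in Epyc. The input differences lie around 0 (medians -0.02 and -0.08), and those of nicotine mice have the same sign for 77.6% of genes.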

How the data were processed

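The deposited files, 1 for each library, hold the authors' raw gene counts by symbol. The submitters' processing notes name STAR 2.3.0e, HTSeq and the mm10 build, with settings not given in the sources used here. Per the labels' protocols, IPN RNA was amplified to cDNA and made into libraries with a DNA kit that names no molecular identifiers or strand marking, so intervals cover counting error only. Reads in no gene (15.2 to 27.3%), without a unique place (44.8 to 57.0%) or ambiguous (0.54 to 1.24%) stayed out of the IP fits, as did an entry without a gene name (at most 1 count).

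Tests used edgeR 4.0.16 (R 4.3.3) after filterByExpr (minimum count 10) and scaling by TMM, with robust quasi-likelihood F tests with line as the only term, and Benjamini-Hochberg adjustment over all genes tested. The SE is the log2 difference divided by the square root of F. Inputs, IPs of nicotine mice and the line by fraction interaction were fitted in the same way. DESeq2 1.42.0, limma 3.58.1 and other settings served as alternatives. Gene positions come from GENCODE M21 (GRCm38, 71.0% of symbols matched), promoter sequences from RefSeq, and figures from Python 3.11.15. The members, the gene lists and the tests were chosen with earlier results of these data known. Named genes were the label genes, the 12 protein-coding and 3 other genes with the largest called differences per direction at 10 CPM or more without overlap, up to 3 called members per list and direction at 5 CPM or more (or the member with the highest mean where none was called), the 5 called genes with the highest mean CPM at a difference of 1 or more, and the drivers' neighbours. Some genes that this rule names are not reported here. Chrna2 and Slc5a7 were named after their values were seen.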

Additional observations from a re-analysis of the deposited data

Results flagged for a closer look

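Of 137 genes named in the text, 9 had 1 Epyc library apart from the other 4 (Dixon's test at the 95% level, where chance picks about 1 group in 20). The saline pump library was the outlying one for Btnl10 (81.2 CPM, high), Crnde (17.1 CPM, high), Cacna2d4 (2.25 CPM, high), Scg2 (675 CPM, low) and Cdh8 (117 CPM, low). Epyc baseline 3 was outlying for Serpina3g (7.40 CPM, high) and Lrrtm3 (36.4 CPM, low), and Epyc baseline 1 for A530072M11Rik (1.24 CPM, high). Slc44a3 met the criterion through 1 count in Epyc baseline 1 (0.0516 CPM) beside 4 values of 0, where any count would meet it. Every one of these values lay on its own line's side of the Amigo1 libraries, except that Epyc baseline 1 was at the level of Amigo1 baseline 1 for A530072M11Rik (1.24 CPM in both) and that Epyc saline pump 1 exceeded 2 Amigo1 libraries for Cacna2d4.

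The line difference itself differed between mice with and without nicotine for 2 of the 6 label genes, in a fit of 13 IPs that was added after seeing the data (adjusted p over 15716 genes, of which 1155 were called). For Sst the difference was larger with nicotine by 2.81 ± 0.42 on the log2 scale (adjusted p = 0.00490), with every Amigo1 nicotine library at 9939 CPM or more. For Epyc the fitted value was -7.40 ± 1.69 (adjusted p = 0.0226), which rests on a group without counts (0 in the 3 Amigo1 nicotine libraries) and so depends on the prior count. Route of nicotine, saccharin, library number range and line cannot be told apart in these libraries.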

How the results depend on the processing

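Calls between the IPs without nicotine (534 towards Amigo1 and 553 towards Epyc) stayed within 1.5 times these counts under RLE scaling, no filter on low counts, baseline libraries alone, a term for the saline pump or for the library number range, symbols found in every file and limma voom. DESeq2 called 907 and 881. Leaving out 1 library gave 358 to 732 and 353 to 676, the low count of 353 without Amigo1 baseline 1. Replicate numbers did not pair the libraries (correlations of -0.00481, 0.0622 and 0.0890 for same-numbered IPs). A replicate block on 6 libraries gave 153 and 146 calls, and the same libraries without it 201 and 185 (chosen after seeing the data). With the 5 nicotine IPs in the fit 62 and 20 were called. For these settings the cause was not tested, beyond fewer libraries in the block fits. In nicotine mice the 0 calls towards Amigo1 became 1 under RLE scaling, 122 with DESeq2 (202 towards Epyc), 10 without a filter and 0 to 6 without 1 library (1, 5 and 6 without Amigo1 nicotine water 3, Epyc nicotine pump 2 and Epyc nicotine pump 1). Between inputs DESeq2 called 2 and 2, and leaving out 1 library gave 0 to 2 and 0 to 4, above 0 only without Epyc input saline pump 2. IP differences beyond input (304 and 315) became 508 towards Amigo1 with DESeq2 and 231 to 573 without 1 library, the 573 without Amigo1 IP baseline 4. Of 133 called genes named, none changed sign in any alternative, 33 kept their calls in all, 100 lost them with the nicotine IPs in the fit and 53 under the block. Depth limits genes near 0: 3 counts correspond to 0.117 to 0.379 CPM per IP library.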
